A study of Mus musculus with 24 samples.

Results

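Interferon-stimulated genes are genes whose transcription rises when a cell senses interferon or viral nucleic acid. The set described here is a list of 39 named genes, of which 37 had a named probe and were tested, among 14455 genes tested and 20138 genes with a probe. Mx1 and Mx2, which encode dynamin-like antiviral GTPases, had no probe matched by accession and are not analysed here. RNA was measured on 24 one-colour Agilent arrays of mouse embryonic fibroblasts (MEF), cultures grown from embryos. Cells given tunicamycin (Tun, 2 µg per mL, 12 h by the labels) were set against untreated cells (UT) of the same genotype. The genotypes were PERKKO cells, which lack the stress kinase PERK (2 arrays per treatment), ATF4KO cells, which lack the transcription factor ATF4 (2), eIF2a A/A cells, whose eIF2a carries alanine at the phosphorylated serine (2), and wild-type cells (4). Cells carrying the Fv2E-PERK transgene, in which the kinase of PERK is fused to a drug-binding part and can be activated with no stress, were given AP for 12 h (2 arrays) or left untreated (2). What AP stands for and its dose are not in the labels, which also do not name the promoter of the transgene or whether a line is 1 clone. The shared treatment protocol names 12 or 24 h, and the file name of untreated PERKKO replicate 2 speaks of a mock of 24 h.

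Type I interferon binds the receptor chains Ifnar1 and Ifnar2, whose kinases Jak1 and Tyk2 phosphorylate transcription factors, Stat2 among them. With Irf9 these bind the interferon-stimulated response element, a promoter motif, to switch on antiviral genes, Irf7 among them, which in turn drives more interferon. Interferon gamma acts through another promoter motif, the gamma-activated site, and induces guanylate-binding proteins, immunity-related GTPases and the machinery of antigen processing. In fibroblasts the pathway is low at rest and is known for its fast rise when cytosolic RNA or DNA is sensed.

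Promoters are shown because their letters show what these genes share apart from expression. RefSeq windows of 300 bases (build GRCm38.p6), from 250 bases before to 50 after a gene start, were held for 29 of the 39 genes. The core of the interferon-stimulated response element, TTTC, any 2 bases and TTTC again, searched on both strands, was in the window of 15 of these 29 genes (51.7%), against 3.99% of all 27025 genes in that table. TTCNNNGAA, the letters of the gamma-activated site, which read the same on both strands, were in windows of 8 of the 29 genes (27.6%), against 9.55% of all genes. One match of the second motif overlapped a match of the first, in Bst2. A match describes letters and not a bound site. The windows below belong to the first 6 of the genes followed array by array that hold the first motif, whose matches are in capitals, 5′ to 3′.
Stat2 (chr10:128270248-128270547, plus strand): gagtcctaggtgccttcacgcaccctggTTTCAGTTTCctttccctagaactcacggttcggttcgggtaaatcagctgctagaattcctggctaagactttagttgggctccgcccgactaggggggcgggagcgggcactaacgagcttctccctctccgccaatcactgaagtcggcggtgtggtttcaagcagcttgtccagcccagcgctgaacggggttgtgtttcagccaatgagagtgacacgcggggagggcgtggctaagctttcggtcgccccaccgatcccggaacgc
Ifih1 (chr2:62646206-62646505, minus strand): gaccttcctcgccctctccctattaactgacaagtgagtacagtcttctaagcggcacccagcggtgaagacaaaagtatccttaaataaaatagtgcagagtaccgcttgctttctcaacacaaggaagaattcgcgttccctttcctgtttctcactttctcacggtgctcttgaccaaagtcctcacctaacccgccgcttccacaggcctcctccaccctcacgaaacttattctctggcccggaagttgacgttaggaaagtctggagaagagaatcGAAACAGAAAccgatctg
Isg15 (chr4:156200769-156201068, minus strand): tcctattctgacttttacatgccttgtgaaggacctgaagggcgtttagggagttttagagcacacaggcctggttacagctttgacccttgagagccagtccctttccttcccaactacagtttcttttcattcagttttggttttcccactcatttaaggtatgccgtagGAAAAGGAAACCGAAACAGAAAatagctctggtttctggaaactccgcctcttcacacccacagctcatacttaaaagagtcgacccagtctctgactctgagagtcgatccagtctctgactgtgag
Ifit1 (chr19:34640639-34640938, plus strand): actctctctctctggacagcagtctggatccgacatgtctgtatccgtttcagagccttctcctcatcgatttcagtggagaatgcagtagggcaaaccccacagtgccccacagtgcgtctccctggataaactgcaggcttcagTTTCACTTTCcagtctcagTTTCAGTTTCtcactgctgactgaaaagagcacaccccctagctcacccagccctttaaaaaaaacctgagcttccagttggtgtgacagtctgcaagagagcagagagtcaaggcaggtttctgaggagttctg
Ifit3 (chr19:34583279-34583578, plus strand): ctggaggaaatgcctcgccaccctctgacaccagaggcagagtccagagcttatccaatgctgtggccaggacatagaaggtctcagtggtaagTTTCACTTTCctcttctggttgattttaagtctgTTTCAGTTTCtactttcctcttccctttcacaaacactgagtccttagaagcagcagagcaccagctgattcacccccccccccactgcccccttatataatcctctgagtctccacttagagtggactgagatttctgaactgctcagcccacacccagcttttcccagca
Oas1a (chr5:120907476-120907775, minus strand): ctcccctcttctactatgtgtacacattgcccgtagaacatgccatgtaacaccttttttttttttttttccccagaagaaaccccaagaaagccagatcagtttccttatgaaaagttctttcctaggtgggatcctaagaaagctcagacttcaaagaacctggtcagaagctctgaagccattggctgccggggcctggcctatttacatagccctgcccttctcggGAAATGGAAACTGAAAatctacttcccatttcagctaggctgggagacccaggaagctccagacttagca
The matches lay 222 bases before the gene start in Stat2 and 32 after it in Ifih1. They began 78, 72 and 66 bases before it in Isg15 (overlapping), 104 and 85 in Ifit1, 156 and 122 in Ifit3, and 20 and 14 in Oas1a (overlapping).

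A level is the log2 ratio of a probe's background-corrected signal to the 75th percentile of its array. Changes are log2 differences ± SE from 1 limma fit over all 24 arrays, called at a Benjamini-Hochberg adjusted p under 0.05 over all 14455 genes. The arrays were scanned in 3 runs, and the wild-type arrays fell into 2 sets, replicates 1 and 2 scanned with the ATF4KO arrays (run 1) and replicates 3 and 4 with the PERKKO arrays (run 2). Data files name them as wild types of different lines. The wild-type arrays of run 1 had Xist, an RNA of female cells, at 1.65 to 2.11, and those of run 2 had it at background, while the Y-linked Ddx3y showed the reverse. Scan run and cell origin therefore cannot be told apart, and the sets are kept apart, except where eIF2a A/A cells, scanned with no wild type, are set against the mean of both. The spread between replicates differed by run. The median residual SD of the 37 genes was 1.15 in run 1, 0.154 in run 2 and 0.159 in run 3, against 0.336, 0.147 and 0.0946 over all tested genes. A fit over all arrays uses 1 spread per gene, so it is narrow for run 1 and wide for the other runs. For that reason the count from a fit on the 8 arrays of the run alone (4 residual degrees of freedom) stands beside the counts of these genes wherever a comparison lies within 1 run. Nothing in the labels ties replicates to separate cultures, so p-values measure the spread between these arrays, which may be technical. Tunicamycin raised all 6 stress markers fixed as a check (Ddit3, Hspa5, Herpud1, Atf3, Trib3, Asns) in both wild-type sets and in PERKKO cells, 4 in ATF4KO and 3 in eIF2a A/A cells, and AP raised 5. Asns was called lower in ATF4KO cells (-1.38, adjusted p = 0.000563, 0.104 in the run alone). Atf3 was called lower in eIF2a A/A cells (-0.87, adjusted p = 0.0279, 0.00105 in the run alone).

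The sets differed in these genes before any treatment. In untreated wild-type cells of run 1, 36 of the 37 genes stood higher than on every untreated array of the other 5 sets, where 5.59% of all tested genes did (36 of 37 by mean, 12.2% of all genes). The exception was Ifit2, a tetratricopeptide-repeat antiviral protein, whose level stayed between -0.47 and 1.13 on all 24 arrays. At the other end, untreated eIF2a A/A cells had the lowest mean of the 6 untreated sets for 30 of 37 genes (15.3% of all genes). Levels set across scan runs rest on the scaling of each array alone, and run 3 carried another version of the array design.

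**Figure D1:**
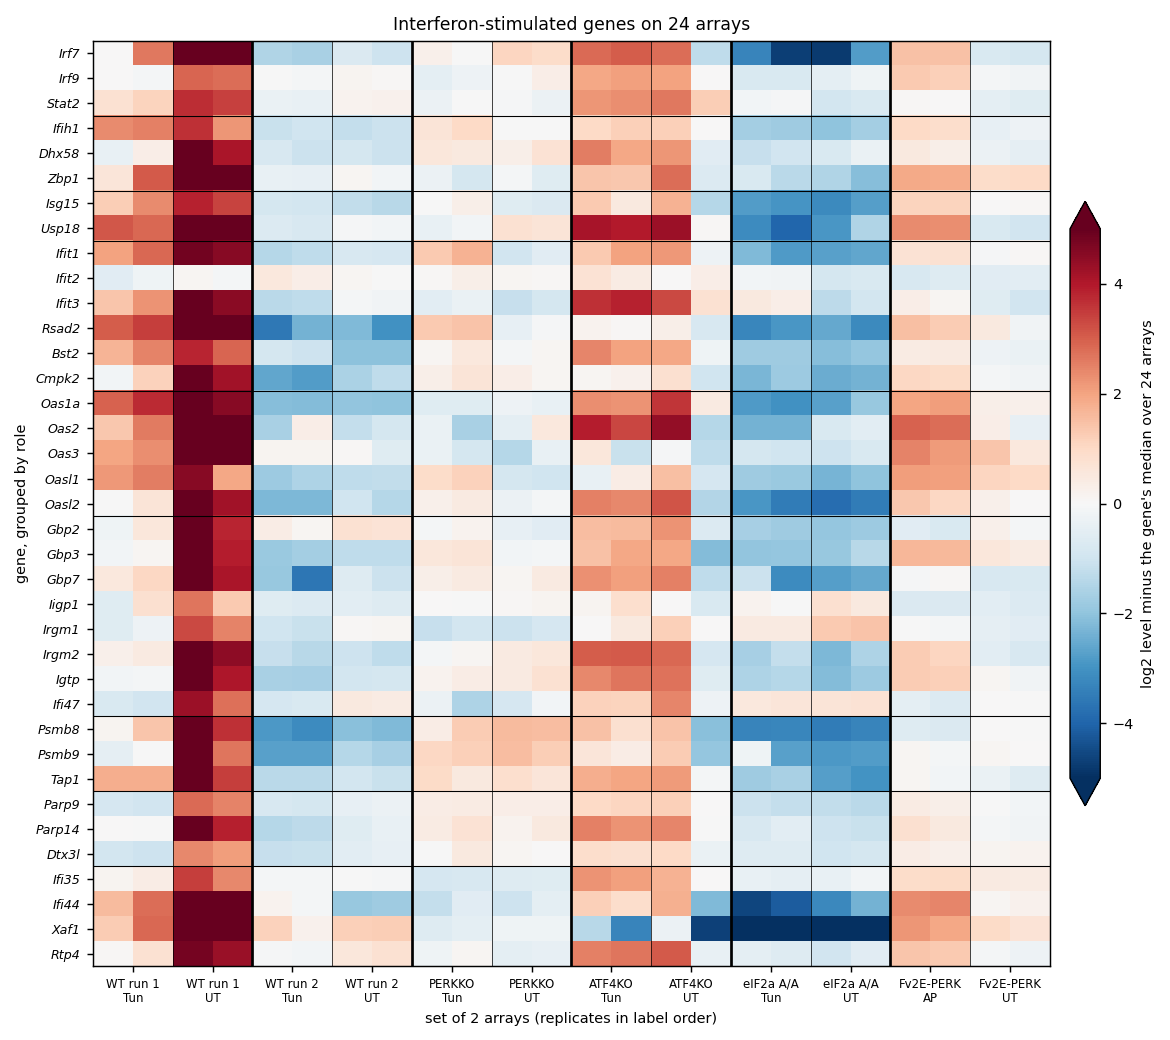
Log2 level of each of 37 interferon-stimulated genes (rows, grouped by role) on each of 24 arrays (columns, sets of 2), minus the gene's median over the 24 arrays (colour, clipped at -5 and 5). The 2 untreated arrays of wild type run 1 are dark red in nearly every row, and ATF4KO untreated replicate 1 (left) and replicate 2 (right) differ in colour.

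Isg15, a ubiquitin-like modifier, shows the order. Its level was 8.86 and 8.39 in untreated wild-type cells of run 1 and 6.72 and 3.57 in untreated ATF4KO cells. It was 5.00 and 5.05 in untreated Fv2E-PERK cells, 4.40 and 4.27 in untreated PERKKO cells, 3.76 and 3.63 in untreated wild-type cells of run 2 and 1.82 and 2.24 in untreated eIF2a A/A cells. The ATF4KO arrays spanned the levels of the next 3 sets, while the other neighbours did not overlap. Irf7, the regulator of interferon transcription, read 5.44 and 3.16 in untreated wild-type cells of run 1, and in untreated eIF2a A/A cells it was well above background on neither array. Usp18, the protease that removes Isg15 from proteins and restrains the receptor, read 5.65 and 5.33 in untreated wild-type cells of run 1 against -1.22 and -1.28 in those of run 2. Relative to each gene's mean over all arrays, the median gene stood at 4.79 and 3.64 on the untreated wild-type arrays of run 1. It stood between -1.17 and -0.13 on untreated arrays of run 2, between -0.37 and -0.30 in untreated Fv2E-PERK cells and between -2.31 and -2.10 in untreated eIF2a A/A cells.

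Replicates of 2 sets of run 1 stood apart. In untreated ATF4KO cells, replicate 1 lay above replicate 2 for 36 of 37 genes, by over 1 log2 unit for 35 of them (10.7% of all genes). The median gap was 2.71, where the median absolute gap over all tested genes was 0.443. In untreated wild-type cells of run 1, replicate 1 lay above replicate 2 for all 37 genes, by over 1 log2 unit for 24 of them (7.47% of all genes). The median gap was 1.27, where the median absolute gap over all tested genes was 0.333. The 2 first replicates were scanned on 1 day and the 2 second replicates on another. With tunicamycin the median gap was 0.05 in ATF4KO cells and -0.43 in wild-type cells of run 1. In the other 8 sets the median gap lay between -0.21 and 0.11. Counts of called genes below that use the untreated ATF4KO arrays are given with both and without each.

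The comparison of tunicamycin with no treatment asks how these genes respond to endoplasmic reticulum stress. In wild-type cells of run 1, 33 of 37 genes were called lower and 0 higher, with a median change of -3.66, where 16.7% of all tested genes were called lower and 20.4% higher and the median of all genes was 0.10. The fit on run 1 alone called 16 lower (5.02% of all genes) and 0 higher (3.96%), and no treated array overlapped an untreated one for 35 genes (25.4% of all genes). In this run each slide and each scan day held 1 treatment, so treatment, slide and day cannot be told apart.

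All 3 regulators were called lower in wild-type cells of run 1. Irf7 read -1.79 and 0.83 with tunicamycin against 5.44 and 3.16 untreated (-4.78 ± 1.11, adjusted p = 0.0037, 0.101 in the run alone). Irf9, the DNA-binding partner of Stat2, read 1.53 and 1.44 against 4.42 and 4.32 untreated (-2.89 ± 0.40, adjusted p = 6.87e-05). Stat2 read 2.08 and 2.43 with tunicamycin against 4.98 and 4.74 untreated (-2.61 ± 0.30, adjusted p = 1.17e-05). Irf9 and Stat2 kept the call in the run alone (adjusted p = 0.0334 and 0.0203), and Irf7, whose replicates were wide apart, did not.

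Among sensors, Dhx58, the RNA helicase LGP2, read -2.53 and -1.82 with tunicamycin against 3.17 and 1.93 untreated (-4.73 ± 0.62, adjusted p = 4.15e-05). Zbp1, a sensor of left-handed nucleic acid, read -1.98 and 0.47 against 6.01 and 4.06 untreated (-5.79 ± 0.90, adjusted p = 0.000186). Ifih1, the long-RNA sensor MDA5, was an exception, at 2.48 and 2.63 with tunicamycin against 3.77 and 2.32 untreated (-0.49 ± 0.38, adjusted p = 0.334), with overlapping groups. In the ISG15 system, Isg15 read 6.24 and 7.35 with tunicamycin against 8.86 and 8.39 untreated (-1.83 ± 0.67, adjusted p = 0.0431). Usp18 read 1.96 and 1.70 against 5.65 and 5.33 untreated (-3.66 ± 0.86, adjusted p = 0.00402). Neither Isg15 nor Usp18 passed in the run alone (adjusted p = 0.288 and 0.111), although the treated arrays lay below the untreated ones in both.

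Of 6 Ifit and other antiviral genes, 4 were called lower (2 in the run alone). Ifit1, which binds viral RNA lacking cap methylation, read 1.53 and 2.38 with tunicamycin against 4.35 and 4.05 untreated (-2.25 ± 0.53, adjusted p = 0.00432). Ifit3, its partner, read 0.93 and 1.78 against 5.52 and 4.03 untreated (-3.42 ± 0.60, adjusted p = 0.000471). Rsad2, the radical SAM enzyme viperin, read 0.18 and 0.61 against 3.54 and 2.48 untreated (-2.62 ± 0.46, adjusted p = 0.000485). The treated arrays lay below the untreated ones in all 3, with Rsad2 called in the run alone too (adjusted p = 0.0238) and the Ifit genes not (0.123 and 0.0612). Bst2, the tetherin that holds budding virions, missed the call at 5.98 and 6.77 with tunicamycin against 8.11 and 7.19 untreated (-1.27 ± 0.49, adjusted p = 0.0528). Cmpk2, a mitochondrial nucleotide kinase, changed by -4.47 ± 0.53 (adjusted p = 1.79e-05).

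The oligoadenylate synthetase family makes the second messenger that activates RNase L. Oas2 changed most of all 37 genes, with -2.66 and -1.41 with tunicamycin against 5.78 and 3.08 untreated (-6.46 ± 1.33, adjusted p = 0.00164). Oas1a read 4.21 and 5.00 with tunicamycin against 7.77 and 5.80 untreated (-2.18 ± 0.73, adjusted p = 0.0299). Oasl2, an oligoadenylate synthetase-like protein, read 0.58 and 1.27 against 6.22 and 4.80 untreated (-4.59 ± 0.93, adjusted p = 0.00145). Oas3 changed by -4.71 ± 0.75 (adjusted p = 0.000225), whereas Oasl1, which in mouse restrains translation of Irf7, gave -0.89 ± 0.69 (adjusted p = 0.336).

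Interferon-inducible GTPases, which disrupt the vacuoles of intracellular parasites and bacteria, were called lower in all 8 cases (5 in the run alone). Gbp3 read -0.34 and -0.10 with tunicamycin against 5.75 and 3.73 untreated (-4.95 ± 0.87, adjusted p = 0.00048). Gbp2 read -0.79 and -0.03 against 4.48 and 3.23 untreated (-4.27 ± 0.63, adjusted p = 0.000107). Igtp read 0.15 and 0.19 against 5.31 and 4.34 untreated (-4.65 ± 0.67, adjusted p = 8.84e-05). Treated and untreated arrays were far apart in all of these. Irgm1 read 1.06 and 1.41 against 5.00 and 4.16 untreated (-3.34 ± 0.31, adjusted p = 1.68e-06). Iigp1 read -1.43 and -0.03 against 1.85 and 0.50 untreated (-1.90 ± 0.43, adjusted p = 0.00306). The other 3, Gbp7, Irgm2 and Ifi47, changed by -3.93, -4.47 and -4.36.

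The 3 antigen processing genes were called lower as well, and 0 of them in the run alone. Psmb8, an immunoproteasome subunit, read 0.85 and 2.10 with tunicamycin against 5.96 and 4.37 untreated (-3.69 ± 0.80, adjusted p = 0.00224). Tap1, a chain of the peptide transporter into the endoplasmic reticulum, read -0.04 and -0.02 against 3.13 and 1.62 untreated (-2.40 ± 0.53, adjusted p = 0.00261). Psmb9, a second immunoproteasome subunit, changed by -4.10 ± 0.90. Among the ADP-ribosylation genes, Parp9 read 0.36 and 0.24 with tunicamycin against 4.04 and 3.68 untreated (-3.56 ± 0.26, adjusted p = 1.53e-07), and its ubiquitin ligase partner Dtx3l changed by -3.21 ± 0.29. Parp9, Dtx3l and Parp14 (-4.44 ± 0.53) kept their calls in the run alone. The remaining genes, Ifi44, Ifi35, Xaf1 (a cofactor of apoptosis) and Rtp4 (a receptor transporter), changed by -3.50, -2.69, -4.26 and -4.15, all called. Of these, Ifi35 kept the call in the run alone (adjusted p = 0.0412). One probe, the brightest, stands for each gene, and a second probe of Isg15 that was well above background on all 24 arrays gave -3.49 against -1.83 here. A second probe of Iigp1, well above background on only 3 of 24 arrays, gave -5.70 against -1.90. Oas1a, Ifit3 and Iigp1 have close copies in the mouse genome, and probe sequences are not used here, so their values may include copies.

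Fibroblast markers moved in the same comparison. Of 10 markers, 6 were called lower and 0 higher in wild-type cells of run 1 (16.7% and 20.4% of all genes), and 2 lower and 0 higher in the run alone (5.02% and 3.96%). Those 2 were Dcn, which changed by -4.66, and Lum, which was well above background on neither treated array. The summed linear level of the 10 markers was 455 to 534 with tunicamycin and 666 to 764 untreated. Haematopoietic markers summed to 20.3 to 71.0 with tunicamycin and 21.6 to 27.9 untreated. Of the 9 with a probe, 4 were well above background on both arrays with tunicamycin and 4 on both untreated arrays. On neither array were 3 with tunicamycin and 2 untreated. Tyrobp and Lyz2 were well above background on no array. The part of cell composition in the falls was not tested, and fewer cells of a type and less RNA per cell cannot be told apart in such samples.

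**Figure D2:**
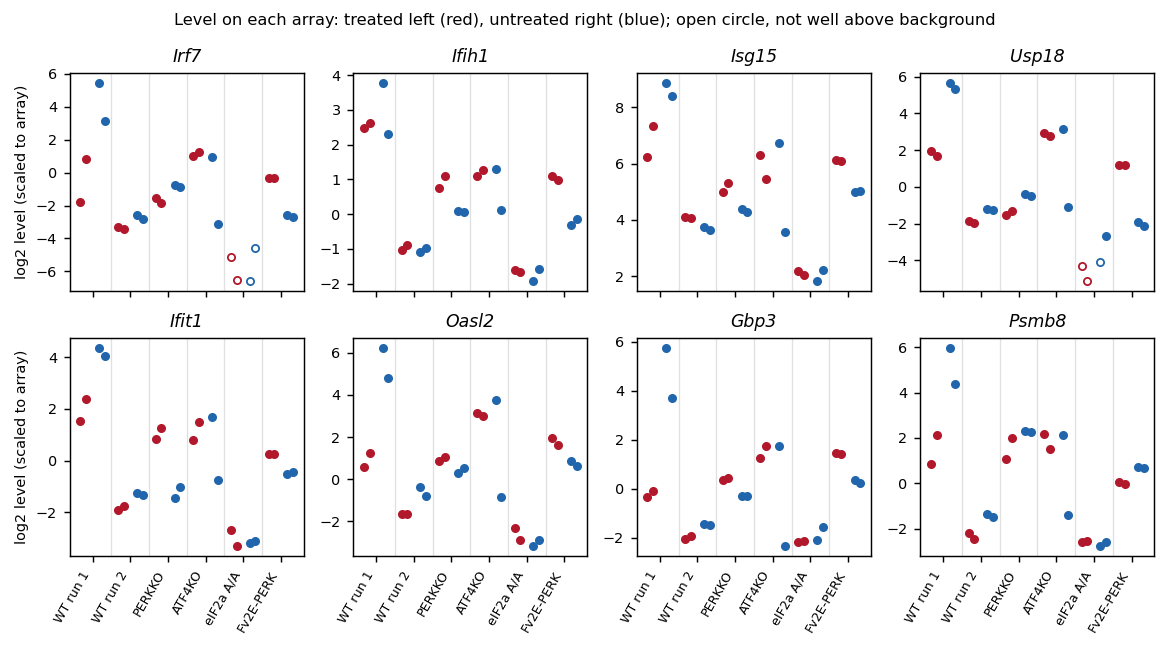
Log2 level scaled to each array's 75th percentile (vertical axes differ by panel) of 8 genes of different roles in 6 sets of cells, 2 arrays per treatment, treated in red left of untreated in blue; open circles are not well above background. Untreated wild type of run 1 tops 7 panels on both arrays (for Ifih1 only on 1), Fv2E-PERK with AP lies above untreated Fv2E-PERK for all but Psmb8, and untreated ATF4KO replicates lie far apart.

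In wild-type cells of run 2 the fit over all arrays called 1 gene, Irgm1, at 0.69 and 0.58 with tunicamycin against 1.73 and 1.79 untreated (-1.13 ± 0.31, adjusted p = 0.0184), and 0 genes were called higher. Without any 1 of these 4 arrays, 0 genes were called. Without the untreated ATF4KO arrays the same fit called 12 lower and 2 higher (11.3% and 15.6% of all genes). Called lower were 9.04% of all genes and higher 12.2%. The median change was -0.51, and the treated arrays lay below the untreated ones for 26 genes (34.8% of all genes) and above for 5 (41.6%). The fit on run 2 alone called 16 lower and 2 higher, against 14.1% and 17.1% of all genes. Those lower in that fit included Ifit3 at -1.81 and -1.73 with tunicamycin against -0.55 and -0.63 untreated (adjusted p = 0.0019) and Oasl2 at -1.64 and -1.63 against -0.38 and -0.79 untreated (adjusted p = 0.00539). The 2 higher genes were Bst2, at 3.40 and 3.23 against 2.23 and 2.22 untreated (adjusted p = 0.00473), and Ifi44, at -0.72 and -0.98 against -2.79 and -2.67 untreated (adjusted p = 0.00334). Gbp7, well above background on neither treated array, was at least 1.59-fold lower (adjusted p = 0.179 over all arrays).

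The responses of the wild-type sets differed by a test of the difference for 21 of 37 genes, all more negative in run 1, where 4.75% of all genes were called more negative and 3.15% more positive. The median difference was -2.90. Oas2 differed by -6.85 ± 1.88 (adjusted p = 0.0392), Zbp1 by -5.42 ± 1.28 (adjusted p = 0.018) and Parp9 by -3.07 ± 0.36 (adjusted p = 0.000218). Of the 8 arrays, leaving out treated replicate 2 left 20 called and untreated replicate 2 left 22, and leaving out any other left 9 to 12.

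ATF4KO cells ask whether the response differs without ATF4, a transcription factor of the stress response. The Atf4 probe read -4.27 and 0.01 on treated and 2.79 and -0.05 on untreated ATF4KO arrays, against 8.70 and 8.63 on treated and 7.22 and 7.19 on untreated wild-type arrays of run 1. All 4 ATF4KO arrays lay below all 4 wild-type ones, and untreated replicate 1, the one that stood higher in the set, also stood higher in Atf4. Within ATF4KO cells the probe was called lower with tunicamycin (-3.50 ± 0.97, adjusted p = 0.0135, 0.217 in the run alone). Irf7 read 1.03 and 1.24 with tunicamycin and 0.97 and -3.10 untreated. Ifit3 read 3.18 and 3.37 with tunicamycin against 2.84 and 0.29 untreated. Usp18 read 2.95 and 2.79 with tunicamycin and 3.14 and -1.09 untreated. In each, the treated arrays lay close together and the untreated arrays far apart. Irgm2, an immunity-related GTPase, read 2.13 and 2.17 with tunicamycin against 1.97 and -1.73 untreated. Of 37 genes 4 were called higher (Ifit3 1.71 ± 0.60, Bst2 1.37 ± 0.49, Irgm2 2.03 ± 0.74, Ifi35 1.26 ± 0.39) and 0 lower, against 13.6% of all genes higher and 18.9% lower, with a median of 0.86. The run alone called 0 of the genes in either direction (0.796% of all genes higher and 0.955% lower), and treated arrays lay above the untreated ones for 7 genes (25.4% of all genes) and below for 0 (29.4%). That count depends on single arrays, treated as well as untreated. None of these calls held in every fit that left out 1 of the 4 arrays. Without untreated ATF4KO replicate 1, 29 genes were called higher and 0 lower (17.4% and 25.3% of all genes) and the median was 2.24. Without replicate 2, 1 was called higher and 1 lower (9.24% and 12.3%) and the median was -0.27.

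The difference between the responses kept its direction without either untreated ATF4KO array. In ATF4KO minus wild-type cells of run 1, 34 of 37 genes were called positive and 0 negative, with a median of 4.73, where 13.5% of all genes were called positive. The count was 36 without untreated ATF4KO replicate 1 (median 5.74, 16.5% of all genes) and 32 without replicate 2 (median 3.30, 12.2%), but 3 in the run alone (Parp9, Dtx3l and Parp14; 2.04% of all genes). Oas2, at -0.08 and -0.67 with tunicamycin against 0.40 and -5.43 untreated in ATF4KO cells, differed by 8.60 ± 1.88 (adjusted p = 0.003) and Irf7 by 6.97 ± 1.57 (adjusted p = 0.00357). Oasl1, Ifih1 and Oas1a missed the call. This difference includes the high starting level of untreated wild-type cells of run 1.

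Untreated ATF4KO cells were lower than untreated wild-type cells of run 1 for 36 of 37 genes called, and 0 higher, with a median of -3.52 (12.3% of all genes lower). The arrays of these 36 genes did not overlap (21.3% of all genes). The run alone called 9 (3.89%), among them Rsad2, at -2.56 and -3.65 in untreated ATF4KO cells against 3.54 and 2.48 in untreated wild-type cells (-6.11 ± 0.46, adjusted p = 0.00311 in the run alone). Xaf1 read -0.68 and -5.07 in untreated ATF4KO cells against 6.61 and 5.24 in untreated wild-type cells (-8.80 ± 1.00, adjusted p = 1.75e-05), while a second Xaf1 probe, well above background on all 24 arrays, gave -2.23. Oas3, at -5.36 and -6.55 in untreated ATF4KO cells against 3.06 and 0.09 in untreated wild-type cells and well above background on neither of those ATF4KO arrays, was at least 82.3-fold lower (adjusted p = 5.03e-06). For this bound the brighter group's mean is divided by a floor, the dimmest signal well above background per dim array or the probe's own signal if higher. Without untreated ATF4KO replicate 1, 36 genes were called lower (13.3% of all genes) with a median of -5.08, and without replicate 2, 34 (13.1%) with a median of -1.97.

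Markers of other cell types moved in the same comparison. Of 10 fibroblast markers, 3 were called lower in untreated ATF4KO cells (Dcn, Lum and Thy1) and 3 higher (Col1a2, Pdgfrb and Vim). Over all tested genes 12.3% were called lower and 11.7% higher. In the run alone Dcn was lower and 0 were higher (3.89% and 1.81% of all genes). Their summed linear level was 782 to 1317 in untreated ATF4KO cells and 666 to 764 in untreated wild-type cells of run 1. Of 5 haematopoietic markers tested, Cd14 changed by -3.25 ± 0.29 (adjusted p = 1.68e-06, 0.0114 in the run alone) and Cd52 was also called lower over all arrays. Of 5 epithelial markers, Krt18 was called lower (adjusted p = 8.35e-07, 0.00506 in the run alone) and was well above background on neither untreated ATF4KO array. The part of these markers in the difference was not tested.

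PERKKO cells ask whether the response differs without the kinase. In them Ifit1 read 0.82 and 1.25 with tunicamycin against -1.44 and -1.03 untreated (2.27 ± 0.53, adjusted p = 0.0291) and was the 1 gene called over all arrays, a call lost without any 1 of the 4 arrays. Without the untreated ATF4KO arrays in the fit, 2 were called higher and 1 lower (4.15% and 1.53% of all genes). Called higher were 2.59% of all genes and lower 0.782%, and the median of the 37 was 0.02. The run alone called 5 higher and 2 lower (4.48% and 1.90% of all genes). Beside Ifit1, these were Oasl1 at 2.05 and 2.28 with tunicamycin against 0.23 and 0.11 untreated (adjusted p = 0.00309), Isg15 at 5.00 and 5.30 against 4.40 and 4.27 untreated (adjusted p = 0.0247), Ifih1 at 0.75 and 1.11 against 0.09 and 0.07 untreated (adjusted p = 0.0265) and Gbp3 at 0.37 and 0.44 against -0.31 and -0.28 untreated (adjusted p = 0.0159). The lower genes were Usp18, at -1.53 and -1.30 with tunicamycin against -0.40 and -0.51 untreated (adjusted p = 0.0122), and Irf7, at -1.54 and -1.83 against -0.75 and -0.89 untreated (adjusted p = 0.0303). All treated arrays lay above or below the untreated ones in these 7 genes, as they did over the set for 11 genes above (26.6% of all genes) and 11 below (20.2%). Rsad2 read -1.56 and -1.45 with tunicamycin against -3.25 and -2.93 untreated (1.59 ± 0.46), which missed the call over all arrays (adjusted p = 0.0828) and in the run alone (0.0929). Of 17 further interferon-stimulated genes tested outside the list, only Cxcl10, a chemokine of the interferon response, was called over all arrays. It read 4.91 and 4.96 with tunicamycin against 1.81 and 2.11 untreated (2.98, adjusted p = 7.23e-06). The run alone called Cxcl10 and Ccl5 higher (adjusted p = 0.00118 and 0.00956), and the rest of the 17 passed in neither fit.

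The PERKKO response minus that of wild-type cells of run 2 was called for 1 gene over all arrays, Ifit1 (2.80 ± 0.75, adjusted p = 0.0335), and 4.22% of all genes were called positive and 4.14% negative. Each fit that left out 1 of the 8 arrays lost the call of Ifit1. Without the untreated ATF4KO arrays 4 genes were called positive and 0 negative (6.55% and 6.63% of all genes). The run alone called 13 positive and 1 negative (8.80% and 7.08% of all genes), Oasl1 (2.42, adjusted p = 0.0018) and Oasl2 (1.61, adjusted p = 0.00824) among the positive and Ifi44 (-1.98, adjusted p = 0.0181) the negative one.

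Between untreated PERKKO and untreated wild-type cells of run 2, 8 genes were called higher and 1 lower (16.1% and 24.7% of all genes), with a median of 0.79, and the run alone called 21 and 6 (21.8% and 29.7%). Without any 1 of the 4 arrays, 3 to 5 genes were called over all arrays, and without the untreated ATF4KO arrays 16 were called higher and 4 lower (18.2% and 27.5% of all genes). Psmb8 read 2.30 and 2.26 in untreated PERKKO cells against -1.38 and -1.51 in untreated wild-type cells (3.72 ± 0.80, adjusted p = 0.00175), and Psmb9 read 1.29 and 0.97 against -1.66 and -1.89 (2.90 ± 0.90, adjusted p = 0.0181). Bst2 read 4.17 and 4.40 in untreated PERKKO cells against 2.23 and 2.22 in untreated wild-type cells (2.06 ± 0.49, adjusted p = 0.00343). Rsad2 and Cmpk2 were at least 3.93-fold and 2.38-fold higher, and Tap1, Ifih1 and Parp9 were also called. Cmpk2 was well above background on only 1 untreated PERKKO array, so its bound rests on a mean that includes a dim array. Irgm1 was the lower one, at 0.62 and 0.83 against 1.73 and 1.79 in untreated wild-type cells (-1.04 ± 0.31, adjusted p = 0.0151). PERKKO cells differed from wild type of run 2 in other ways. Xist read -0.42 to 0.34 in untreated PERKKO cells and was at background in untreated wild-type cells of run 2, while Ddx3y was at background in untreated PERKKO cells and read 1.72 to 1.76 in untreated wild-type cells of run 2, so the lines are of different sex. All 5 epithelial markers summed to 44.1 to 53.6 in untreated PERKKO cells against 0.777 to 0.784 in untreated wild-type cells of run 2, led by Krt18, and 8 of 10 fibroblast markers were called lower (9 in the run alone). Of 5 haematopoietic markers tested, Csf1r (1.72, adjusted p = 0.000264) and Cd52 (3.31, adjusted p = 0.00413) were called higher in untreated PERKKO cells, in the run alone too. Cd14, Fcer1g and Itgam were not called over all arrays, and Itgam was higher in the run alone. The part of all these markers in the difference was not tested.

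In eIF2a A/A cells, whose eIF2a cannot take the stress phosphate, the fit over all arrays called 1 gene, Ifit2, at 0.27 and 0.22 with tunicamycin against -0.47 and -0.35 untreated (0.66 ± 0.16, adjusted p = 0.0208), which was lost without any 1 of the 4 arrays. Without the untreated ATF4KO arrays in the fit, 4 were called higher and 3 lower (5.66% and 4.52% of all genes). The median was 0.15, and 3.88% of all genes were called higher and 2.57% lower. The run alone called 7 higher and 5 lower (18.2% and 16.1% of all genes). Higher in that fit were Ifit3, at 0.01 and -0.12 with tunicamycin against -1.78 and -1.40 untreated (adjusted p = 0.00281), and Stat2, at 1.15 and 1.24 against 0.38 and 0.53 untreated (adjusted p = 0.00215). Irgm1 was lower in it, at 2.14 and 2.12 against 2.99 and 3.12 untreated (adjusted p = 0.00112). Treated arrays lay above untreated ones for 14 genes (35.4% of all genes) and below for 11 (33.0%). In both groups of eIF2a A/A cells, 7 of the 37 genes were well above background on no array. The eIF2a A/A response minus the mean of both wild-type responses was called positive for 17 genes and negative for 0 (10.6% of all genes positive), with a median of 2.23, Psmb9 (4.01 ± 1.10, adjusted p = 0.0171) and Zbp1 (3.85 ± 1.11, adjusted p = 0.022) having the largest called differences. In eIF2a A/A cells Psmb9 read -0.46 and -2.94 with tunicamycin against -3.10 and -3.03 untreated, so 1 treated array carries its change. Zbp1 read -3.34 and -3.93 with tunicamycin against -4.08 and -4.73 untreated there, and a second Zbp1 probe, well above background on 11 of 24 arrays, gave a difference of 0.81. The count of 17 was 7 to 9 without any 1 eIF2a A/A array and 12 to 20 without any 1 wild-type array, and the wild-type mean joins sets with median changes of -3.66 (run 1) and -0.51 (run 2).

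AP in Fv2E-PERK cells asks what PERK activity does without tunicamycin. Treated arrays lay above untreated ones for 31 genes (45.4% of all genes) and below for 5 (27.6%), with a median of 1.00. Over all arrays only Usp18 was called (3.20 ± 0.86, adjusted p = 0.0413; 3.91% of all genes higher and 2.14% lower), and that call was lost without any 1 of the 4 arrays. With the spread of run 3 alone, 27 were called higher and 3 lower (20.7% and 12.0% of all genes), and 12 higher and 0 lower when the untreated ATF4KO arrays left the fit over all arrays (6.5% and 3.65%). By role, the run alone called higher 2 of 3 regulators, 3 of 3 sensors, both genes of the ISG15 system, 5 of 6 Ifit and other antiviral genes, 5 of 5 oligoadenylate synthetases, 4 of 8 GTPases, 2 of 3 ADP-ribosylation genes, all 4 remaining genes and 0 of 3 antigen processing genes.

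Usp18 read 1.20 and 1.17 with AP against -1.90 and -2.12 untreated. Irf9 read 2.82 and 2.71 with AP against 1.44 and 1.36 untreated (1.36 ± 0.40, adjusted p = 0.0609 over all arrays and 0.000881 in the run alone). Irf7 read -0.33 and -0.35 with AP against -2.58 and -2.68 untreated (2.29 ± 1.11), which passed in neither fit (adjusted p = 0.279 and 0.0586). The treated arrays lay above the untreated ones in all 3. Oas2 read -1.09 and -1.24 with AP against -3.69 and -4.41 untreated (adjusted p = 0.00112 in the run alone). Ifih1 read 1.09 and 0.98 with AP against -0.32 and -0.15 untreated (adjusted p = 0.00204 in the run alone). Isg15 read 6.13 and 6.11 with AP against 5.00 and 5.05 untreated (adjusted p = 0.004 in the run alone). Treated and untreated arrays did not overlap in these either. Igtp read 1.55 and 1.48 with AP against 0.41 and 0.13 untreated (adjusted p = 0.00273 in the run alone). Rsad2 read -1.36 and -1.58 against -2.38 and -3.03 untreated (adjusted p = 0.028 in the run alone).

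The 3 genes called lower with AP in the run alone were Gbp2, at -1.13 and -1.34 with AP against -0.33 and -0.67 untreated (adjusted p = 0.0135), Psmb8, at 0.06 and -0.02 against 0.73 and 0.68 untreated (adjusted p = 0.00326), and Ifi47, at -2.29 and -2.47 against -1.79 and -1.82 untreated (adjusted p = 0.00519). Irf7, Gbp7, Tap1, Psmb9, Iigp1, Ifit2 and Dtx3l passed in neither direction. Fibroblast markers had 1 of 10 called lower over all arrays (2.14% of all genes) and 7 of 10 in the run alone (12.0%), with summed levels of 282 to 290 with AP and 470 to 507 untreated, and their part in the changes was not tested.

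**Figure D3:**
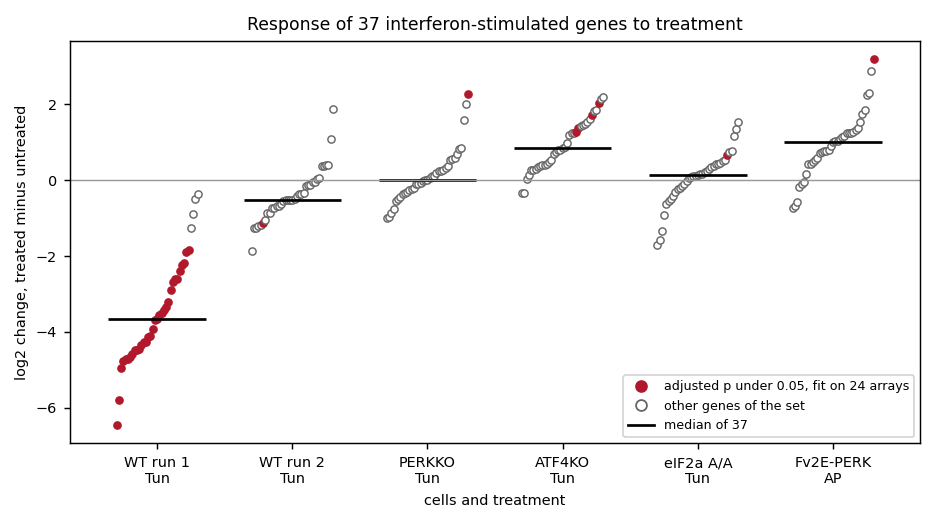
Log2 change of each of 37 interferon-stimulated genes, treated minus untreated, in 6 comparisons (points sorted within each; filled red, adjusted p under 0.05 in the fit over 24 arrays; black bar, median). The medians are -3.66 in wild type of run 1, -0.51 in wild type of run 2, 0.02 in PERKKO, 0.86 in ATF4KO, 0.15 in eIF2a A/A and 1.00 for AP in Fv2E-PERK.

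Genes upstream and beside the set were counted whole in wild-type cells of run 1, where the set moved most. Of 14 genes of JAK-STAT and IRF signalling, 10 were called lower and 0 higher (16.7% and 20.4% of all genes), among them Irf1 (-2.16) and the feedback inhibitor Socs3 (-2.97). Of 16 nucleic acid sensing genes, 8 were called lower and 1 higher (Tlr4, 0.81), with the RNA-activated eIF2a kinase Eif2ak2 (PKR) at -3.06, the RNA sensor Ddx58 (RIG-I) at -3.71 and Adar at -3.05. Of 17 further interferon-stimulated genes, 11 were lower, Uba7, the activating enzyme of ISG15, by -6.55. Of 12 genes of MHC class I and its loading, 9 were lower and 2 higher, and the higher ones were the endoplasmic reticulum proteins Calr (2.17) and Pdia3 (1.72). In the run alone the counts were 3, 5, 6 and 1 lower (5.02% of all genes) and 0, 0, 0 and 2 higher (3.96%). The falls of Irf1 and Socs3 were not particular to this set. In wild-type cells of run 2, Irf1 (-1.20), Socs3 (-1.81), Stat3 (-1.13), Ptpn6 (-1.06) and Socs1 (-0.95) were also called lower, and Jak2 (0.78) higher. These calls held in both fits (over all arrays 9.04% of all genes were lower and 12.2% higher).

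Of the ligands, Ifnb1, which encodes interferon beta, was well above background on 2 of 24 arrays, both untreated wild type of run 1, where it read -1.07 and -2.12. With tunicamycin it read -6.50 and -4.33 there. On the other 20 arrays its level lay at -4.30 or lower. It was not tested, because no label group had it well above background on every array. Ifna4 was well above background on 1 array, also untreated wild type of run 1, and Ifng on 1, untreated eIF2a A/A. Among 6 receptor genes tested in wild-type cells of run 1, 4 were lower (16.7% of all genes) and Ifnar1 was higher (0.47, adjusted p = 0.0219, 20.4% of all genes). In the run alone 2 were lower and 0 higher (5.02% and 3.96% of all genes).

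In untreated ATF4KO against untreated wild-type cells of run 1, all 17 further interferon-stimulated genes, 12 of 16 sensing genes and 8 of 12 MHC class I genes were lower (12.3% of all genes). The counts were 6, 3 and 2 in the run alone (3.89%), 17, 12 and 9 without untreated ATF4KO replicate 1, and 13, 9 and 6 without replicate 2. In PERKKO cells, 0 of 14 signalling genes and 0 of 16 sensing genes were called with tunicamycin (2.59% of all genes higher and 0.782% lower), and 1 and 1 were lower in the run alone (1.90%). With AP, 0 of 17 further interferon-stimulated genes and 0 of 12 MHC class I genes were called over all arrays (3.91% of all genes higher and 2.14% lower). The run alone called 3 higher and 3 lower of the 17, and 2 higher and 3 lower of the 12 (20.7% and 12.0%). Of the 14 signalling genes, Socs1 (-0.98, adjusted p = 0.018) and Ptpn6 (-0.69, adjusted p = 0.0261) were called lower with AP over all arrays. Both were also lower in the run alone, which called Socs3 lower and Irf3, Irf8 and Jak2 higher as well. Among the receptor genes, Ifngr2 was lower in both fits (-0.63, adjusted p = 0.00408 over all arrays). Ifnar1 and Il10rb were lower in the run alone only.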

How the data were processed

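RNA was hybridised to 24 one-colour Agilent arrays. The deposited spot intensity is the processed, background-subtracted signal, written per the file headers by Agilent Feature Extraction (version 10.7.1.1). The deposited log2 table of the authors matched these signals after removal of row and column medians, within 0.001 for 99.325% of values, and was used only as an alternative. The members and all gene lists were chosen with earlier results of these data known. Signals were scaled to the 75th percentile of each array (111 to 418 units), no spot was saturated, and between 45.1% and 58.2% of probes lay well over background. Of 55681 probes 26574 had 1 gene symbol, found through their accession in a RefSeq table (GRCm38.p6, names only), and the brightest probe stood for a gene. A gene was tested (14455 in all) if 1 or more of 10 label groups had it well above background throughout. One limma 3.58.1 fit (R 4.3.3) over 12 sets of arrays, with the wild type split by scan run, gave 12 contrasts with 12 residual degrees of freedom, Benjamini-Hochberg adjusted within each contrast. The script was tested on simulated data with 1 spread per gene, which does not cover the unequal spread of the runs. Per-array values are given for a fixed list of members of each role and for the called extremes of each contrast. Replicate numbers were not used to pair treated with untreated arrays, since the correlation of same-numbered deviations lay between -0.47 and 0.07. The -0.47 was in PERKKO cells, where treated replicate 1 shared a slide with untreated replicate 2. Same-numbered ATF4KO and wild-type arrays of run 1 shared a scan day, and their deviations correlated at 0.269 untreated and 0.471 treated. The main fit had no term for this. One gene outside the set is not reported here.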

Additional observations from a re-analysis of the deposited data

Results flagged for a closer look

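Iigp1 stood apart on 1 of 4 tunicamycin-treated wild-type arrays. It read -1.43, -0.03, -1.42 and -1.50 on replicates 1 to 4, and the gap of replicate 2 to its neighbour was 0.9456 of the range, above Dixon's critical value. These 4 arrays join both wild-type sets, replicates 1 and 2 from run 1 and 3 and 4 from run 2. This was 1 of 74 groups of 4 examined, where chance gives about 1 in 20. The responses differed by a test of the difference itself for 34 of 37 genes between ATF4KO and wild-type cells of run 1. They differed for 17 genes between eIF2a A/A cells and the mean of both wild-type sets. They differed for 1 gene between PERKKO and wild-type cells of run 2, and for 21 genes between the wild-type sets.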

How the results depend on the processing

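Counts below are genes of the 37 called in either direction, and medians are log2 changes over the 37. Fits on a run alone called 16 in wild type of run 1, 0 in ATF4KO, 3 for their difference and 9 in untreated ATF4KO cells. In run 2 they called 18 in wild type, 7 in PERKKO, 14 for their difference and 27 in untreated PERKKO cells, and in run 3 they called 12 in eIF2a A/A and 30 with AP. Pooling the wild types with a run term gives 1 wild-type response shared by both sets, and no response of run 2 apart. It called 27 for that shared response, 7 and 7 for the differences of PERKKO and eIF2a A/A from it, and 4 in untreated PERKKO. The medians were then -2.23 for the shared response, 2.13 and 2.63 for the PERKKO and ATF4KO differences, 0.0378 in untreated PERKKO and -2.72 in untreated ATF4KO. Under this pooling the shared response of Dhx58 was -2.34, opposite in sign to its response in run 2. Parp9 in untreated PERKKO cells turned to -0.0915. Quantile scaling called 0 with AP. Background correction by normexp called 2 in wild type of run 2, 0 in eIF2a A/A and 2 with AP, and gave a median of 3.70 for the ATF4KO difference. With no filter, 0 were called in PERKKO, 1 in ATF4KO, 0 with AP and 0 for the PERKKO difference. With the replicate block, 0 were called in PERKKO, 1 in ATF4KO, 0 with AP, 0 for the PERKKO difference and 5 in untreated PERKKO. The PERKKO replicate numbers correlated at -0.47, and the crossed pairing called 1 gene. Without both untreated ATF4KO arrays, 14 were called in wild type of run 2, 3 in PERKKO, 7 in eIF2a A/A, 12 with AP, 4 for the PERKKO difference and 20 in untreated PERKKO. The last alternative and the crossed pairing were chosen after seeing the data. Leaving out 1 array at a time gave, for counts and medians, 31 to 35 and -4.17 to -3.05 in wild type of run 1, 0 and -0.57 to -0.45 in wild type of run 2, and 9 to 22 and -3.25 to -2.37 for their difference. It gave 0 to 29 and -0.27 to 2.24 in ATF4KO, 31 to 36 and 3.30 to 5.74 for its difference, and 33 to 36 and -5.08 to -1.97 in untreated ATF4KO. It gave 0 and 0.03 to 0.09 in PERKKO, 0 to 1 and 0.40 to 0.56 for its difference, and 3 to 5 and 0.66 to 0.77 in untreated PERKKO. It gave 0 and 0.09 to 0.29 in eIF2a A/A, 7 to 20 and 1.95 to 2.37 for its difference, and 0 and 0.87 to 1.07 with AP. Apart from what the construction of a setting shows (fewer arrays, other spread), the cause was not tested. The slide as a term in run 3 was not run, because each slide holds 1 genotype with both treatments. Signal near background limits genes dim in a group, 7 of them in both groups of eIF2a A/A cells.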
